A study of Homo sapiens with 8 samples.

Results

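The genes described here are 36 members of the fibroblast growth factor (FGF) system, taken as a fixed list of symbols from a table of 58233 genes: 15 ligand genes, 4 genes of intracellular FGF homologous factors, 6 receptor and co-receptor genes and 11 genes that FGF signalling is known to induce or that restrain it. Each symbol matched 1 Ensembl row. RNA was measured in 8 libraries from HUES8, a human embryonic stem cell line, at stage 5 of a differentiation protocol that forms spheroids. Buds (n = 3, flasks 264, 270 and 274) are the small structures parted from spheroids by agitation and a filter. Bulks (n = 5, flasks 252, 261, 264, 270 and 274) are the spheroids left behind. Both groups were the same line at the same stage, and no genetic or drug difference between them is labelled.

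FGF ligands bind receptor tyrosine kinases encoded by FGFR1 to FGFR4, with heparan sulfate on the cell surface as a cofactor. The receptors signal through adaptor proteins to RAS and the MAP kinase ERK, and ERK induces genes whose products damp the same signal, among them Sprouty and SPRED proteins and MAP kinase phosphatases. Endocrine FGFs need a klotho protein as co-receptor. In the embryonic pancreas, FGF10 from the mesenchyme acts on FGFR2 in the epithelium and keeps progenitors dividing. The FGF homologous factors are related in sequence but are not secreted: they stay in the cell and bind voltage-gated sodium channels.

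The receptor kinase genes FGFR2, FGFR3 and FGFR4 were lower in buds, as was FGFRL1, while FGFR1 did not pass the test and KLB, the co-receptor gene, was 17.9-fold higher. FGF12, FGF13 and FGF14 rose, and of the ligand genes FGF2 and FGF17 rose and FGF9 fell. Of the feedback genes SPRY4, SPRED2, SPRED3, DUSP4, DUSP6 and ETV5 rose and SPRY2 fell. Levels are CPM, that is expected counts as a share of the TMM-scaled library size, fold changes are buds over bulks, and a call is an adjusted p below 0.05 in edgeR's quasi-likelihood test over 16641 genes. Of the 36 members, 26 passed the expression filter and 18 were called, 12 of them higher and 6 lower in buds. In the same fit 47.2% of all genes tested were called, 23.4% higher and 23.8% lower. The median log2 fold change was 0.30 over the 26 tested members and -0.02 over all genes tested. All 18 called members had the called direction in each of the 3 flasks that gave both samples, and their bud and bulk ranges did not overlap; non-overlap held for 47.2% of all genes tested. Without the bulk of flask 264, 13 members were higher and 7 lower. Of 18 other fits, SPRED2 kept its call in 6, FGF2 in 11 and ETV5 in 17. The other 15 called members kept theirs in all.

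**Figure D1:**
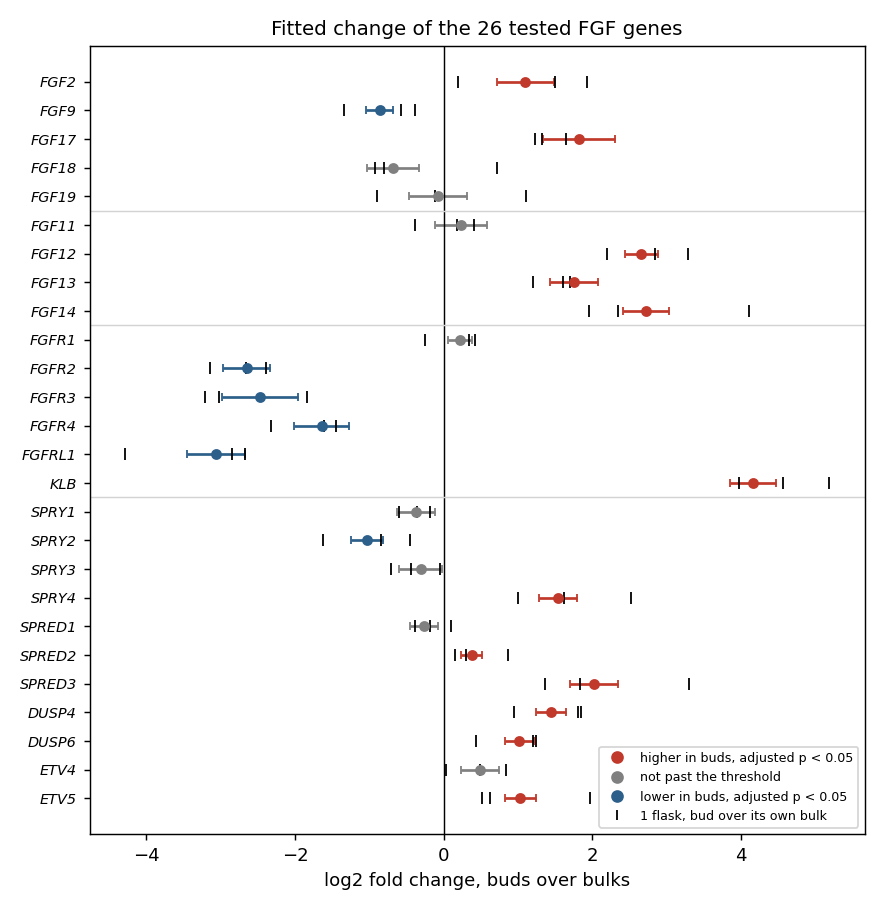
Fitted log2 fold change of the 26 tested members, buds over bulks, with bars of 1 standard error; grey lines part ligands, intracellular factors, receptors and feedback genes, and upright ticks give the bud over its own bulk in each of 3 flasks. KLB lies farthest to the right at 4.16 and FGFRL1 farthest to the left at -3.06.

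Libraries held 6083973 to 12508039 expected counts, so that 3 counts were worth 0.24 to 0.493 CPM. Buds and bulks separated on principal component 1 (70.3% of variance), and the bulk of flask 264 stood away from the rest on component 2 (9.41%). Summed marker levels differed between the groups: neuron markers ran from 3926 to 5920 CPM in buds and 778 to 1364 CPM in bulks (12 of 12 called higher). Endocrine markers ran from 7431 to 13578 CPM in buds and 1591 to 5700 CPM in bulks (6 of 10 higher). Of that sum, CHGA alone gave 5553 to 10774 CPM in buds and 1207 to 4208 CPM in bulks. The endocrine transcription factor genes INSM1, NEUROD1, NKX2-2 and RFX6 were not called, while PAX6 was higher. Epithelial markers ran from 1336 to 1971 CPM in buds and 3356 to 4650 CPM in bulks (9 of 10 lower), and proliferation markers from 74.2 to 86.4 CPM in buds and 303 to 546 CPM in bulks (12 of 12 lower). Pancreatic progenitor markers summed to 321 to 492 CPM in buds and 1096 to 1510 CPM in bulks (8 of 9 lower). In RNA of whole samples, fewer cells of a type and less RNA per cell cannot be told apart. The labels name the flasks as differentiation flasks of 1 line. The p-values measure the spread between libraries of these flasks within each group. The main fit did not use the pairing of samples in the 3 flasks that gave both.

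The DNA before the start of DUSP6 is shown because DUSP6 is a textbook target of this pathway and rose here. Capicua (CIC), a repressor released by ERK, is known to bind octamers of the form TGAATGAA, TGAATGAG, TGAATGGA, TGAATGGG, TCAATGAA, TCAATGAG, TCAATGGA and TCAATGGG. They were searched on both strands in the 250 bases before each gene start in RefSeq promoter windows (GRCh38.p14). Of the 36 members, 25 were searched, in 47 such windows. The other members, among them ETV4, ETV5, FGF9 and FGF19, were not searched, so whether they hold a site was not tested. A match was found in 3 windows, or 6.38% of the 47, against 5.67% of all 35116 windows, a share near that background. The 3 belong to DUSP6, SPRED3 and FGFR2, the last at an alternative start. Capitals mark the octamer as read on the gene's strand, so that a site on the other strand appears as its reverse complement. The DUSP6 stretch (chr12:89352502-89352751, minus strand) holds 1 site, and no exon of DUSP6:
DUSP6: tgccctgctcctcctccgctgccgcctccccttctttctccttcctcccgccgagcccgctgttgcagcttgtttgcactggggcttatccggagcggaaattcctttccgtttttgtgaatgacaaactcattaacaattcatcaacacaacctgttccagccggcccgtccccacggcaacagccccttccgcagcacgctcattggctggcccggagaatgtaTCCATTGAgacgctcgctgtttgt

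SPRED3 held 2 sites before 1 of its starts (chr19:38389588-38389617 and chr19:38389745-38389774, plus strand), and FGFR2, a gene that fell, held 1 (chr10:121594280-121594309, minus strand). The stretches printed around the far SPRED3 site and the FGFR2 site overlap annotated exons of their own genes. The stretch around the near SPRED3 site overlaps no annotated exon. The same windows were searched on both strands for the ETS motif CCGGAAG, found at SPRY1 only (2.13% of member windows, against 8.52% of all windows), and the AP-1 motif TGAGTCA, found at FGF1 and SPRED3 (4.26% of member windows, against 4.2% of all windows). A match describes the letters only. These 30-base stretches set a site of a gene that rose beside a site of a gene that fell:
SPRED3 far site: cttgatttttgTGAATGAAatgctctctgg
SPRED3 near site: ttgcatccggtCTCATTCAtaaatccggga
FGFR2 site: cgttgcttctgCTCATTGAgggcggtggag

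Of the 6 receptor and co-receptor genes, 4 fell and 1 rose, beside 23.8% called lower and 23.4% higher among all genes tested. Their median log2 fold change was -2.06. FGFR2 (chromosome 10, 121478332 to 121598458, GRCh38) encodes the receptor of the pancreatic epithelium for FGF7 and FGF10. It stood at 68.4, 41.3 and 29.9 CPM in the buds of flasks 264, 270 and 274, against 261, 281, 429, 217 and 264 CPM in the bulks of flasks 252, 261, 264, 270 and 274. Every bud lay below every bulk. The log2 fold change was -2.65 ± 0.31 (SE; edgeR adjusted p = 7.62e-05), and within flasks the bud held 0.159, 0.191 and 0.113 of its own bulk. In the following lists of values the flasks keep that order, and changes written with ± are log2 fold changes with their SE.

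FGFR3, best known as a brake on bone growth, was at 19, 17 and 5.22 CPM in buds and 62.3, 50.9, 155, 60.5 and 48.4 CPM in bulks. The bud of flask 274 was the lowest library, the bulk of flask 264 held more than the other 4 bulks, and the groups did not overlap. The fall was -2.47 ± 0.51 on the log2 scale (edgeR adjusted p = 0.00237).

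FGFR4, a receptor used by FGF19 in liver together with KLB, was at 64, 35.6 and 17.1 CPM in buds and 109, 125, 174, 108 and 85.1 CPM in bulks. Buds and bulks did not overlap, though the bud of flask 264 came near the lowest bulk. Its log2 fold change was -1.64 ± 0.37 (edgeR adjusted p = 0.00451), and it ran from -2.19 to -1.27 when single libraries were left out.

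FGFRL1, a receptor that binds ligand and lacks the kinase domain, was at 17.7, 10 and 3.93 CPM in buds against 75.6, 90.7, 113, 71.8 and 76.8 CPM in bulks. It had the largest fall of the members, -3.06 ± 0.39 (edgeR adjusted p = 0.000139), and ranked 179th from the lowest of 16641 genes. In the bud of flask 274 it held 0.0512 of the level in that flask's bulk. For all 4 of these genes the bud of flask 264 was the highest bud and the bud of flask 274 the lowest. The sum of epithelial markers was 1971, 1379 and 1336 CPM in the same buds, and its part in the receptor falls was not tested.

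FGFR1 did not pass the test. It was at 212, 221 and 206 CPM in buds and 171, 166, 252, 174 and 154 CPM in bulks. The 3 buds lay above 4 of the 5 bulks and below that of flask 264. The log2 fold change was 0.22 ± 0.16 (edgeR adjusted p = 0.287). Without the bulk of flask 264 it was 0.36 and passed (edgeR adjusted p = 0.0181). LETM2, whose exons overlap those of FGFR1 on the opposite strand, averaged 5.51 ± 1.73 CPM in buds and 1.90 ± 0.554 CPM in bulks (SD, n = 3 and 5). It rose by 1.54 on the log2 scale (edgeR adjusted p = 0.00251).

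KLB (beta-klotho, chromosome 4, 39406930 to 39451533) is the co-receptor that lets FGF19 and FGF21 act through FGFR4 or FGFR1. It had 89, 95 and 188 counts in buds, against 6, 7, 2, 6 and 6 counts in bulks. These are 12, 8.64 and 15.1 CPM in buds and 0.793, 0.93, 0.33, 0.549 and 0.64 CPM in bulks. The lowest bud was more than 9 times the highest bulk. Its log2 fold change, 4.16 ± 0.31 (edgeR adjusted p = 1.28e-05), ranked 70th from the highest of 16641 genes. Within flasks the bud held 36.4, 15.7 and 23.6 times the level of its bulk, though the bulk of flask 264 had 2 counts only. The related co-receptor gene KL (klotho) was at 13.5, 5.73 and 5.70 CPM in buds and 3.44, 4.12, 0.33, 4.76 and 4.06 CPM in bulks, and did not pass (1.26 ± 0.52; edgeR adjusted p = 0.0665). It passed without the bulk of flask 264 (edgeR adjusted p = 0.0312), without the expression filter (edgeR adjusted p = 0.0207) and in DESeq2 (adjusted p = 0.0429).

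**Figure D2:**
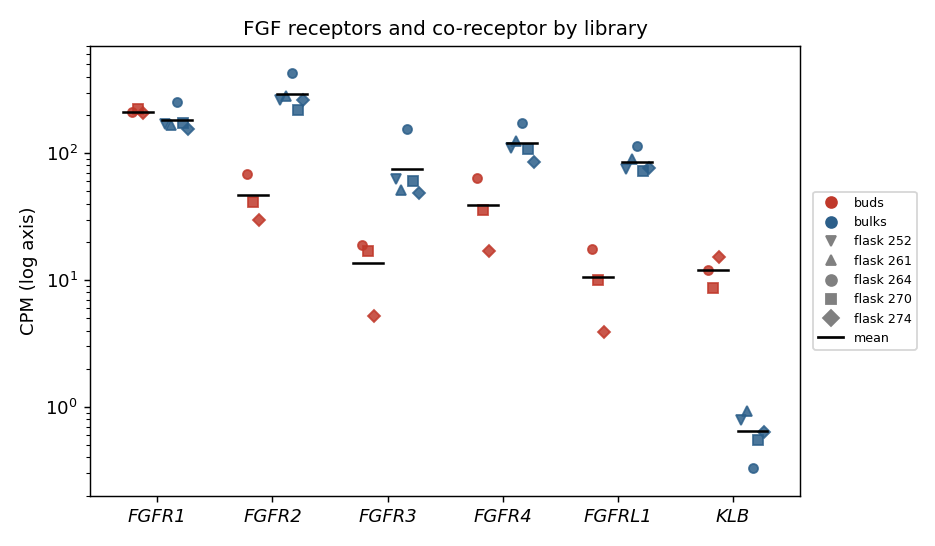
CPM of the 5 receptor genes and KLB in each library on a log axis, buds left of bulks, with marker shapes for flasks and a line at each group mean. The buds lie below all bulks for FGFR2, FGFR3, FGFR4 and FGFRL1 and above all bulks for KLB, and the bulk of flask 264 is the highest bulk for the 5 receptor genes.

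Levels of different genes were set against each other only per kilobase of merged exon. On that scale FGFR1 made up 37.2, 49.5 and 65.8% of the summed level of FGFR1 to FGFR4 in buds, against 16.8, 15.8, 13.9, 17.8 and 17.6% in bulks. Every bud exceeded every bulk, and the buds differed among themselves more than the bulks did. The share of FGFR4 was 29.4 ± 10.3% across the 3 buds and 37.9 ± 3.43% across the 5 bulks (mean ± SD), where it was the highest of the 4. The summed level was 33.2, 25.9 and 18.2 CPM per kilobase in buds and 59.2, 61.1, 105, 56.6 and 50.6 CPM per kilobase in bulks. With the length of the canonical transcript instead, chosen after seeing the data, FGFR1 made up 61.0 ± 12.5% in buds and 21.6 ± 1.81% in bulks, and FGFR2, not FGFR4, was the highest in bulks (41.6 ± 3.43%). By the bud means FGFR1 was first under both lengths, although in the bud of flask 264 FGFR4 exceeded it per merged exon length (40.1 against 37.2%). At 12.4 ± 0.440 CPM per kilobase of merged exon in buds it exceeded FGFR4 (8.09 ± 4.92) by less than the spread of FGFR4. Per-gene counts do not part the splice forms of FGFR1 to FGFR3 that differ in ligand binding.

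**Figure D3:**
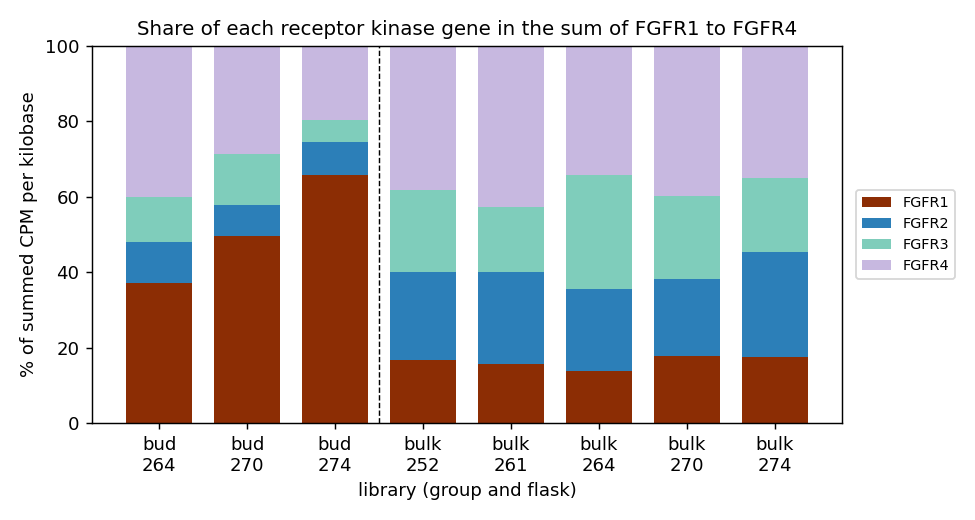
Share of FGFR1, FGFR2, FGFR3 and FGFR4 in their summed level (CPM per kilobase of merged exon, in percent) in each of 3 buds, left of the dashed line, and 5 bulks. The FGFR1 share is 37.2 to 65.8% in buds and 13.9 to 17.8% in bulks.

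The 4 FGF homologous factors were all above the expression filter, and 3 rose, beside 23.4% called higher among all genes tested. The median log2 fold change was 2.21 over the 4. FGF14 (chromosome 13, 101710804 to 102402457), known to tune sodium channels in neurons, had the highest level per length of the 4 in both groups. It stood at 304, 231 and 303 CPM in buds, against 37.4, 35.9, 17.6, 59.9 and 59.4 CPM in bulks. The groups did not overlap, and the bulk of flask 264 was the lowest library. The log2 fold change was 2.72 ± 0.31 (edgeR adjusted p = 7.25e-05). ITGBL1, whose exons overlap FGF14 on the opposite strand by up to 3358 bases, had at most 1 count in any library.

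FGF12, a factor of the same kind in heart and brain, was at 30.5, 29.7 and 41.3 CPM in buds and 5.02, 5.98, 3.13, 6.5 and 5.76 CPM in bulks. Each bud held over 4 times the level of its own bulk, and the log2 fold change was 2.66 ± 0.22 (edgeR adjusted p = 1.78e-05). FGF13, which also binds microtubules in developing neurons, was at 10.7, 20.3 and 25.6 CPM in buds and 5.55, 3.06, 4.61, 6.68 and 7.9 CPM in bulks. The bud of flask 264 was the lowest bud and still above all bulks (1.75 ± 0.32; edgeR adjusted p = 0.00125).

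FGF11, the remaining gene of the group, was at 3.78, 12.6 and 7.71 CPM in buds and 7.67, 5.45, 4.94, 9.43 and 6.83 CPM in bulks. The bud of flask 264 was the lowest library and that of flask 270 the highest (0.23 ± 0.35; edgeR adjusted p = 0.622). Its exons overlap those of the non-coding genes ENSG00000262880 and ENSG00000272884 on the same strand, so the split of reads among them is uncertain. The neuron markers STMN2 and DCX were higher in the same buds, STMN2 at 721 to 1141 CPM against 26 to 184 CPM in bulks, and DCX at 1097 to 1612 CPM against 198 to 422 CPM in bulks; their part in the rise of FGF12 to FGF14 was not tested.

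Of the 15 ligand genes, 5 passed the expression filter, with a median log2 fold change of -0.08. Among these 5, 2 rose and 1 fell, beside 23.4% called higher and 23.8% lower among all genes tested. FGF9, a ligand of mesenchyme and epithelium in many organs, was at 12.9, 16.8 and 17.3 CPM in buds and 34, 28.4, 32.8, 22 and 25.8 CPM in bulks. All buds were below all bulks, and the log2 fold change was -0.86 ± 0.18 (SE; edgeR adjusted p = 0.00323). FGF17, a ligand of the FGF8 group known from the midbrain and hindbrain boundary, was at 2.7, 4.82 and 4.01 CPM in buds and 0.132, 0.797, 1.15, 1.92 and 1.28 CPM in bulks. It rose by a log2 fold of 1.82 ± 0.49 (edgeR adjusted p = 0.0107), on 1 to 21 counts a bulk.

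FGF2, the ligand used to keep human stem cells in culture, was at 3.78, 4.27 and 7.87 CPM in buds and 1.98, 2.66, 0.989, 3.75 and 2.78 CPM in bulks. The lowest bud was next to the highest bulk. Its log2 fold change of 1.10 ± 0.38 passed narrowly (edgeR adjusted p = 0.0357) and was lost with flask as a block (0.0867 for the edgeR adjusted p). Without the bud of flask 274 it was 0.70 (edgeR adjusted p = 0.218). The call was also lost when the bulk of flask 252, 261 or 274 was left out (edgeR adjusted p = 0.0721, 0.0563 and 0.0529). NUDT6, which overlaps FGF2 on the opposite strand, averaged 5.80 ± 0.296 CPM in buds and 9.37 ± 1.98 CPM in bulks (SD, n = 3 and 5). NUDT6 thus went the other way from FGF2 (log2 fold change -0.68; edgeR adjusted p = 0.0262).

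FGF18 and FGF19 did not pass. FGF18, another ligand of the FGF8 group, was at 4.85, 4.82 and 3.61 CPM in buds and 6.21, 10.8, 2.97, 8.42 and 6.83 CPM in bulks (-0.68 ± 0.35; edgeR adjusted p = 0.136). The lowest library was the bulk of flask 264, and without it FGF18 passed at -0.87 (edgeR adjusted p = 0.0184). FGF19, an intestinal hormone that acts on the liver through KLB, was at 2.56, 8.46 and 7.47 CPM in buds and 8.72, 7.44, 4.78, 3.94 and 8.11 CPM in bulks. The groups overlapped throughout (-0.08 ± 0.39; edgeR adjusted p = 0.884). Per kilobase of merged exon, FGF19 stood at 3.38 ± 1.73 in buds and 3.62 ± 1.16 in bulks, and FGF9 at 3.24 ± 0.496 in buds and 5.90 ± 1.02 in bulks (CPM per kilobase; SD, n = 3 and 5). By their means these 2 were the highest ligand genes in both groups, and in buds they did not differ beyond their spread. FGF18, at 2.22 ± 0.354 in buds and 3.52 ± 1.44 in bulks, lay within the spread of FGF19 in both groups.

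The other 10 ligand genes were below the filter. FGF7 and FGF10, mesenchymal ligands of epithelial FGFR2, had few counts: FGF7 had 11, 6 and 20 in buds and 0, 3, 3, 0 and 3 in bulks, and FGF10 had 7, 11 and 13 in buds and 9, 3, 13, 7 and 24 in bulks. For FGF7 all buds were above all bulks, whereas for FGF10 they overlapped. FGF7 was called higher where it was fitted: without the filter (edgeR adjusted p = 0.013), in DESeq2 (adjusted p = 0.0312) and with bud 270 left out (edgeR adjusted p = 0.021). The sum of mesenchyme markers was 51.1 to 135 CPM in buds and 44 to 109 CPM in bulks, with 2 of 9 tested markers higher and 3 lower. Counts of FGF1 were 3, 6 and 8 in buds and 0, 0, 0, 1 and 1 in bulks, with no overlap, and FGF1 was called higher without the filter (edgeR adjusted p = 0.00878) and in DESeq2 (adjusted p = 0.0337). FGF5 had 6, 2 and 1 counts in buds and 4, 3, 2, 6 and 4 in bulks, and FGF20 had 7, 1 and 3 in buds and 0, 1, 0, 2 and 9 in bulks. FGF4, FGF8, FGF16, FGF21 and FGF22 had at most 2 counts in any library. FGF21, the other ligand that uses KLB, had 1 count in 1 bud and none in the other 7 libraries. For these 5 genes a difference was not detectable at this depth.

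**Figure D4:**
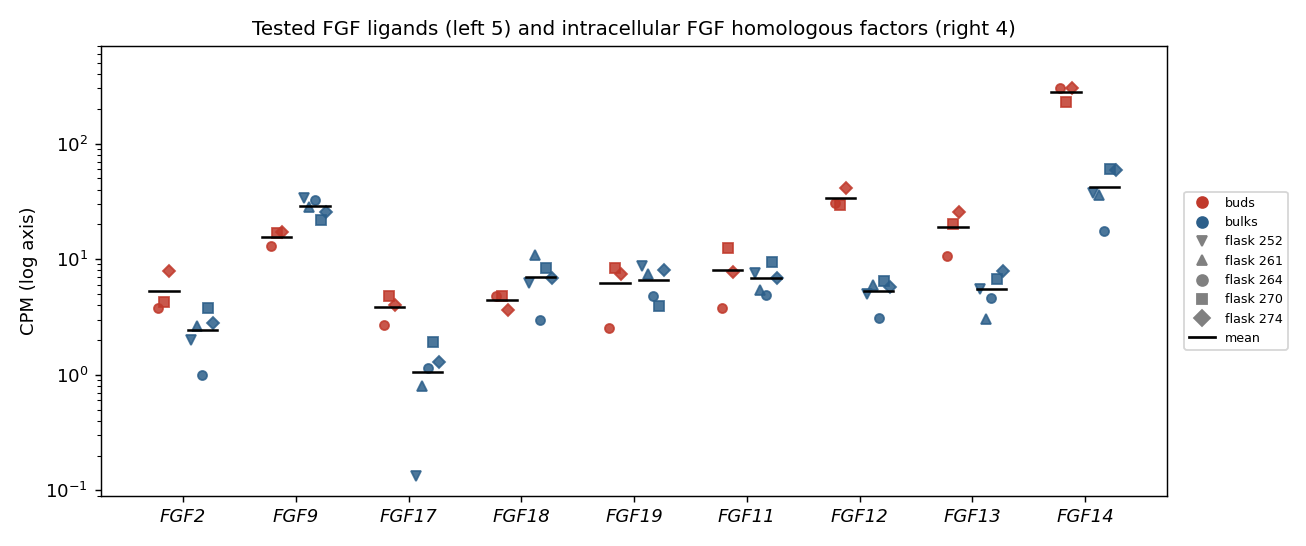
CPM of the 5 tested ligand genes and 4 FGF homologous factor genes in each library on a log axis, buds left of bulks, with marker shapes for flasks and a line at each group mean. FGF14 lies at 231 to 304 CPM in buds and 17.6 to 59.9 CPM in bulks, and FGF19 overlaps between the groups.

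Of the 11 feedback genes 6 rose and 1 fell, beside 23.4% called higher and 23.8% lower among all genes tested. Their median log2 fold change was 0.49. Both MAP kinase phosphatase genes among them rose. DUSP4, which inactivates ERK in the nucleus, was at 344, 308 and 452 CPM in buds and 116, 175, 95.9, 160 and 129 CPM in bulks. It was the highest of the 11 feedback genes per length in buds, at 50.6 ± 10.3 CPM per kilobase. In bulks SPRY2 was the highest by its mean, at 24.9 ± 5.29 CPM per kilobase against 18.6 ± 4.43 for DUSP4. In the bulk of flask 270 DUSP4 was above SPRY2 (22 against 19.1 CPM per kilobase). The log2 fold change of DUSP4 was 1.44 ± 0.20 (edgeR adjusted p = 0.000212).

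DUSP6 (chromosome 12, 89347235 to 89352501), which inactivates ERK in the cytoplasm, was at 84, 82.3 and 113 CPM in buds and 42.8, 41.2, 62.1, 34.9 and 49.1 CPM in bulks. The highest bulk was that of flask 264, and it was below the lowest bud. The rise was 1.02 ± 0.19 (edgeR adjusted p = 0.00117). The non-coding gene ENSG00000274021, which overlaps DUSP6 on the opposite strand and the printed stretch, averaged 1.44 ± 0.653 CPM in buds and 0.417 ± 0.161 CPM in bulks (SD, n = 3 and 5).

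Sprouty genes went both ways. SPRY4 was at 18.9, 9.91 and 15.1 CPM in buds and 5.29, 6.51, 3.3, 4.94 and 4.91 CPM in bulks. It rose by 1.54 ± 0.26 (edgeR adjusted p = 0.000675). SPRY2, which acts on receptor kinase signalling upstream of ERK, was at 32.6, 34.2 and 50 CPM in buds and 74.4, 94.3, 101, 61.3 and 68.5 CPM in bulks. All buds were below all bulks, and the fall was -1.03 ± 0.21 (edgeR adjusted p = 0.0022). The levels of SPRY1 ran from 5.55 to 10.9 CPM in buds and 8.42 to 14 CPM in bulks, and those of SPRY3 from 3.09 to 4.58 CPM in buds and 3.2 to 6.19 CPM in bulks; neither passed (edgeR adjusted p = 0.261 and 0.401).

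Of the SPRED genes, whose products block the activation of RAF by RAS, SPRED3 changed most. SPRED3 was at 24.4, 27 and 26.3 CPM in buds and 5.68, 5.18, 2.47, 10.5 and 7.37 CPM in bulks. The buds lay close together and above all bulks (2.02 ± 0.32; edgeR adjusted p = 0.000472). SPRED2 was at 52, 46.4 and 49 CPM in buds and 37.9, 39.5, 28.5, 37.8 and 44.1 CPM in bulks. Its change was small (0.38 ± 0.14; edgeR adjusted p = 0.0484) and the call was lost with flask as a block (edgeR adjusted p = 0.104) and without any 1 library except the bulk of flask 274, where the edgeR adjusted p ran from 0.054 to 0.137. SPRED1 had 22 to 34 CPM in buds and 26.9 to 41 CPM in bulks and did not pass (edgeR adjusted p = 0.28).

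The ETS factors ETV4 and ETV5 are nuclear targets of FGF signalling in many embryonic tissues. ETV5 was at 45.7, 30.4 and 34 CPM in buds and 16, 18.3, 11.7, 21.2 and 22 CPM in bulks. It rose by 1.03 ± 0.21 (edgeR adjusted p = 0.00254), and with flask as a block its edgeR adjusted p was 0.0514. DGKG, which overlaps ETV5 by 119 bases on the same strand, also rose, at 27.9 ± 12.1 CPM in buds and 3.91 ± 2.50 CPM in bulks (SD, n = 3 and 5). ETV4 was at 18.2, 13.2 and 17.4 CPM in buds and 8.2, 13, 17.8, 9.43 and 9.71 CPM in bulks. The bulk of flask 264 lay among the buds, and the change of 0.49 ± 0.25 did not pass (edgeR adjusted p = 0.133). Without that bulk it was 0.69 (edgeR adjusted p = 0.0176).

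**Figure D5:**
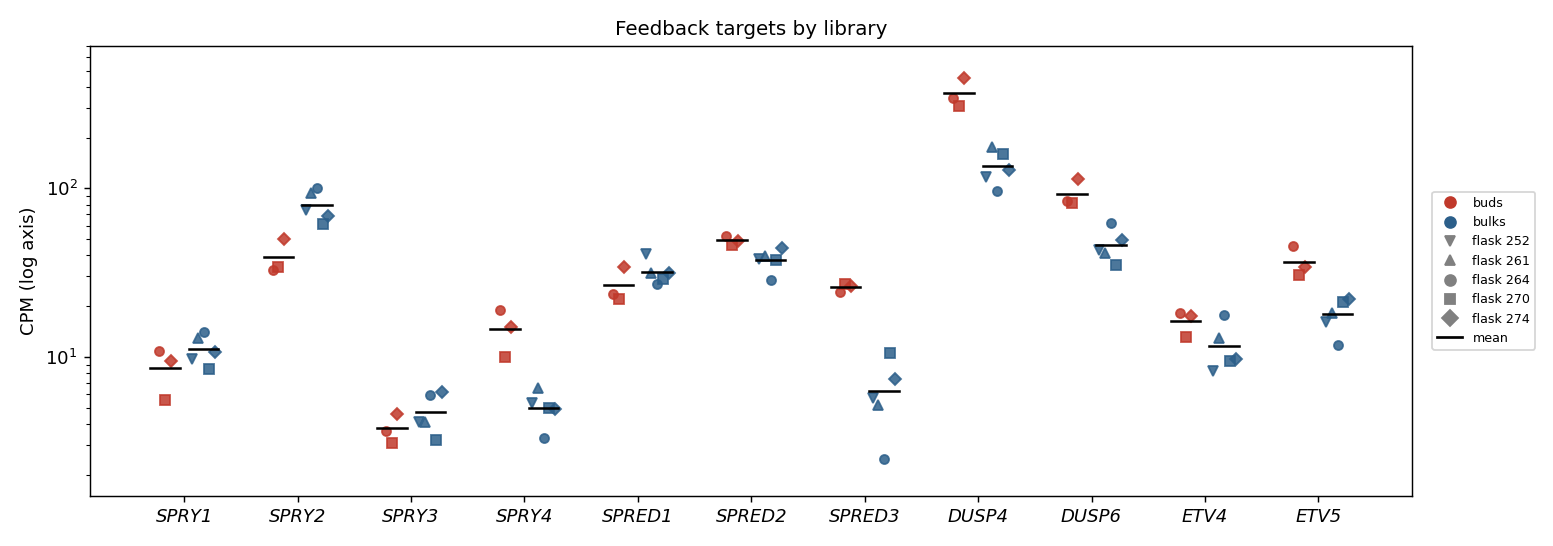
CPM of the 11 feedback genes in each library on a log axis, buds left of bulks, with marker shapes for flasks and a line at each group mean. The buds lie above all bulks for SPRY4, SPRED2, SPRED3, DUSP4, DUSP6 and ETV5 and below all bulks for SPRY2.

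Another 76 genes of the pathway were read from lists chosen with earlier results of these data known. Of 69 tested, 23 were higher and 17 lower in buds, with a median log2 fold change of 0.26. Over all genes tested, 23.4% were called higher and 23.8% lower, and the counts of each list are to be read beside these shares. Of 6 tested genes for ligand-binding and receptor-associated proteins, 3 rose and 1 fell, against 2 and 2 with flask as a block, and 3 and 2 without bulk 264. FLRT1, of a family of membrane proteins that bind FGF receptors, rose by 3.20 ± 0.33, at 21.7 ± 3.61 CPM in buds and 2.30 ± 1.23 CPM in bulks. ANOS1 (anosmin), a matrix protein that modulates FGFR1, rose by 1.29 ± 0.23. FLRT2 fell by 1.78 ± 0.28 on the log2 scale, at 77.5 ± 18.1 CPM in buds and 265 ± 83.8 CPM in bulks. The edgeR adjusted p was 4.15e-05 for FLRT1, 0.00111 for ANOS1 and 0.000446 for FLRT2.

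Of 22 genes for adaptors and the RAS to MAP kinase chain, 7 were higher and 3 lower. Among all genes tested 47.2% were called, so this list does not stand out by its number of calls. The receptor adaptor gene FRS3 stood at 1.01 ± 0.31 on the log2 fold scale (edgeR adjusted p = 0.0222, and 0.134 with flask as a block) and MAPK3, encoding an ERK kinase, 0.85 ± 0.16 (edgeR adjusted p = 0.00143), while the RAF kinase gene ARAF had -0.79 ± 0.21 (edgeR adjusted p = 0.00925) and the RAS activator gene SOS1 -0.72 ± 0.19 (edgeR adjusted p = 0.00892). The call of FRS3 was lost without the bud of flask 270 or 274 (edgeR adjusted p = 0.104 and 0.069) and that of SOS1 when bud 270 was left out (edgeR adjusted p = 0.0511). All 4 changes were smaller than those of any called receptor gene.

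Of 15 tested genes among other ERK-induced genes and phosphatases, 3 rose and 6 fell, beside 23.4% and 23.8% of all genes tested. ETV1, of the same ETS group as ETV4 and ETV5, rose by 2.87 ± 0.40 (edgeR adjusted p = 0.000228), at 361, 429 and 636 CPM in buds and 60.3, 40.1, 23.9, 105 and 93.5 CPM in bulks. DUSP10, a phosphatase of stress-activated kinases, rose by 1.68 ± 0.14 (edgeR adjusted p = 1.84e-05). DUSP9, an ERK phosphatase, fell by 3.76 ± 0.53 on the log2 scale (edgeR adjusted p = 0.00025), at 5.93, 3.18 and 0.482 CPM in buds and 37.9, 50.5, 51.9, 29.7 and 34.8 CPM in bulks. Without the bud of flask 264 the change of DUSP9 was -4.50. The ephrin receptor gene EPHA2 had -3.19 ± 0.29 (edgeR adjusted p = 2.5e-05). These phosphatase genes went both ways, with DUSP1, DUSP4, DUSP6 and DUSP10 higher, DUSP5 and DUSP9 lower, and DUSP7 not called. DUSP1 changed by 1.46 ± 0.26 (edgeR adjusted p = 0.00106), DUSP5 by -0.78 ± 0.25 (edgeR adjusted p = 0.0255), and the value of DUSP7 was 0.08 ± 0.16 (edgeR adjusted p = 0.723). These 3 were chosen after their values were seen.

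Of 25 tested genes for heparan sulfate synthesis, carriers and sulfatases, 10 were higher and 7 lower, beside 23.4% and 23.8% of all genes tested. With flask as a block 6 were higher, and also 6 without bud 274. The sulfotransferase genes HS3ST1 and NDST4 rose by 3.51 ± 0.30 (edgeR adjusted p = 2e-05) and 3.45 ± 0.57 (edgeR adjusted p = 0.000612). HS3ST1 was at 48.8, 52.8 and 81.4 CPM in buds and 2.78, 3.32, 7.42, 6.78 and 6.3 CPM in bulks. The core protein genes GPC3 (glypican 3) and SDC4 (syndecan 4) had log2 fold changes of -3.10 ± 0.22 (edgeR adjusted p = 1.26e-05) and -2.96 ± 0.40 (edgeR adjusted p = 0.000189). Left out singly, the bulk of flask 270 moved NDST4 to 4.30 and the bud of flask 264 moved SDC4 to -3.71. GPC3 was at 68.3 ± 15.1 CPM in buds and 585 ± 122 CPM in bulks (SD, n = 3 and 5). Of the remaining list, FGF3, FGF6 and FGF23 were below the filter, with FGF3 and FGF6 at 0 counts in all 8 libraries.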

How the data were processed

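Polyadenylated RNA of 3 buds and 5 bulks was read in pairs on a NextSeq 500, per the labels' protocols. The authors deposited expected counts per Ensembl gene, not normalized, made with STAR and RSEM on GRCh38, per the submitters' processing notes. Versions, annotation release and strand setting: not given in the sources used here. Reads that fit more than 1 gene are shared out by RSEM, and 11.5% of deposited values were not whole numbers (tolerance 1e-06); 6 members had such values (FGF2, FGF11, FGF13, FGF14, FGFR1 and DUSP6). Reads of genes on opposite strands cannot be told apart without strand.

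Identifiers were matched to GENCODE release 44 (98.6% of 58233 genes). Expected counts were rounded and compared with edgeR 4.0.16 in R 4.3.3: filter by group (minimum count 10, total 15), TMM factors, quasi-likelihood F test, Benjamini-Hochberg adjustment over all 16641 genes tested, no covariate. Means are given with SD over libraries, fold changes with SE. That SE was worked back from the test, as the absolute log2 fold change over the square root of its F value. CPM per kilobase uses merged exon length. Intervals and floors of 3 counts cover counting error only. The test was also tried on counts simulated from the means and dispersions of this fit. Far fewer genes were changed there than were called here, so that trial does not measure error rates at this share of calls.

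Members, lists and the naming rule were chosen with earlier results of these data known. Members past the threshold, highest of their role, or below the filter with at least 5 counts in 1 library are given by library; of each pathway list, the 2 largest called changes in each direction are named. By the labels, 264, 270 and 274 each gave a bud and a bulk sample from 1 flask. Flask numbers were taken to pair samples on these labels. Deviations from group means correlated at 0.123, 0.134 and 0.295 within these flasks. Buds and bulks of unlike flasks correlated at -0.245 to 0.194, so the correlations do not settle the pairing. Alternatives were flask as a replicate block, the 3 flasks with both samples alone, RLE, upper-quartile and no scaling, other filters, DESeq2 1.42.0, limma-voom (limma 3.58.1), a stricter threshold and leaving out each library; added after seeing the data were the canonical transcript length and leaving out bulks 252 and 264 together. No 2 replicates matched within sampling noise (lowest chi-square per gene 9.22).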

Additional observations from a re-analysis of the deposited data

Results flagged for a closer look

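Of 37 values examined in the 5 bulks (the CPM of 26 tested members and the sums of 11 marker lists), 2 had a sample far from the others: its distance to the nearest bulk, as a share of the whole range, passed the limit of 0.71. By chance alone about 1 in 20 such groups does. Both lay in the bulk of flask 264. FGFR1 was at 252 CPM there and at 154 to 174 CPM in the other bulks. FGFR3 was at 155 CPM there and at 48.4 to 62.3 CPM in the other bulks. Buds held 206 to 221 CPM of FGFR1 and 5.22 to 19 CPM of FGFR3. The call of FGFR3 stood without that bulk, and FGFR1, not called with it, passed without it (log2 fold change 0.36; edgeR adjusted p = 0.0181).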

How the results depend on the processing

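Counts of called members, of the pathway genes together and of all genes stayed within 1.5 times their values under every alternative listed. Counts in single pathway lists moved more: of adaptor and MAP kinase genes, 4 were higher in the 3 flasks with both samples and at the stricter threshold, and 6 heparan sulfate genes were higher in each of these. Of the 18 called members, 15 kept direction and call in all 18 other fits; the exceptions were FGF2, SPRED2 and ETV5. At the stricter threshold of 0.01 in the same fit, FGF2, SPRED2 and FGF17 (edgeR adjusted p = 0.0107) were not called. ETV5 lost its call with the replicate block only (edgeR adjusted p = 0.0514). The block changed no other call of a member besides those of FGF2 and SPRED2. With bulks 252 and 264 both left out (an alternative added after the data were seen), FGF18, FGFR1 and ETV4 also passed, at -0.96, 0.38 and 0.61. Directions turned only for 2 uncalled members: leaving out single libraries gave -0.21 to 0.55 for FGF11 and -0.32 to 0.27 for FGF19. FGF11 had -0.21 without the bud of flask 270, and FGF19 had 0.17 in the 3 flasks with both samples, 0.10 with the block, 0.27 without the bud of flask 264, 0.04 without the bulk of flask 252 and 0.01 without that of flask 274. The cause was not tested. Of the 10 ligand genes below the filter, FGF1 and FGF7 were called higher without the filter and in DESeq2, where 14 members were higher, and FGF7 also without the bud of flask 270. Depth limits these 10 genes, and 3 buds limit every comparison.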
